A study of Mus musculus with 12 samples.

Results

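The 50 genes described here encode the machinery that takes a cell through mitosis: cyclins and kinases of mitotic entry, the spindle checkpoint, the anaphase trigger, kinesin motors, spindle assembly factors, kinetochore and chromosome structure proteins, and cytokinesis factors. They were taken from a list by name, but that list was chosen with earlier results of these data known. All 50 are among the 23479 genes of the deposited table. Total RNA was sequenced from 2 kinds of myeloid-derived suppressor cell (MDSC), immature cells of the myeloid lineage that expand in cancer and can suppress T cells. Monocytic M-MDSC and neutrophil-like PMN-MDSC (polymorphonuclear) were sorted from spleens of C57BL/6 mice carrying B16, a melanoma line, in tumours of more than 25 mm2. One set of mice was untreated (Ctrl). The other set (LD, lymphodepleted) had received cyclophosphamide, an alkylating drug, together with fludarabine, a purine analogue, and cells were taken on day 7 after that treatment at a stated sort purity above 99%. Each of the 4 groups (each population in Ctrl and in LD) has 3 libraries, called replicates 1, 2 and 3. Drug doses and the age and sex of the mice are not given in the sources used here.

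Mitotic genes are switched on late in the cell cycle. The kinase Cdk1 with cyclin B drives entry into mitosis, the checkpoint proteins Bub1, Bub1b, Bub3, Mad2l1 and Ttk hold chromosome separation until each kinetochore is attached, and Cdc20 with the anaphase-promoting complex then releases it. Myeloid progenitors in marrow and spleen divide, whereas mature neutrophils do not, so RNA of these genes is low in resting cells and peaks in cells in G2 and mitosis. In bulk RNA, a larger share of dividing cells and more RNA per dividing cell cannot be told apart.

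Levels are normalized counts, that is, reads per gene divided by 1 size factor per library. Changes are log2 differences ± SE fitted by limma on log2(normalized count + 1) over all 11122 genes with a mean of at least 10, and a gene is called where its Benjamini-Hochberg adjusted p over those genes is under 0.05. Of the 50 members, 49 passed that minimum. Cenpm, a kinetochore protein, did not, and read 18.8, 6.7 and 5.6 in M-MDSC Ctrl, 14.5, 11.9 and 14.8 in M-MDSC LD, 7.1, 3.5 and 1.6 in PMN-MDSC Ctrl and 8.1, 0 and 0 in PMN-MDSC LD. The libraries held 8906045 to 16242926 reads in genes. Of the defining receptors, Ccr2, a monocyte chemokine receptor, read at least 10069.4 in each M-MDSC library and at most 493.2 in PMN-MDSC, and Csf3r, the G-CSF receptor, at least 95898.8 in PMN-MDSC and at most 4749.8 in M-MDSC. The other M-MDSC and PMN-MDSC markers measured also separated the populations, apart from Ly6c2 and Itgam. Ly6c2, a monocyte surface antigen, read 1332 to 1801.8 in M-MDSC Ctrl and 395.5 to 649.8 in PMN-MDSC Ctrl. In LD its ranges overlapped, at 1757.7 to 2187.6 in PMN-MDSC and 1994 to 2427.5 in M-MDSC. Itgam, an integrin of both lineages, was higher in each PMN-MDSC library. Replicate 1 of both LD groups stood apart from replicates 2 and 3 for most members, so the counts of called genes in LD are also given without them.

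Many G2 and mitosis genes carry 2 short promoter motifs, the cell cycle homology region bound by the DREAM and MuvB complexes and the CCAAT box bound by NF-Y. Promoters from 250 bases before to 50 after the start were matched in RefSeq (build GRCm38.p6) for 43 of the 50 members. TTTGAA or TTCGAA, read on both strands (TTTGAA is TTCAAA on the other), was in 36 of 43 (83.7%), against 19.4% of all 27025 promoters of the same length. CCAAT, also on both strands (ATTGG on the other), was in 33 (76.7%) against 37.9%, and both motifs in 31 (72.1%) against 7.7%. The motifs do not overlap each other in the lines below. A match describes the letters and is no measured binding site.

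The 5 promoters printed here are those in which both motifs lie in the 80 bases before the farther upstream of the start sites in RefSeq and GENCODE. Counted from the RefSeq start alone, other members also hold both within that distance. The 5 printed promoters belong to members that differ in role and in outcome: Cdk1, Top2a and Kif11 rose after lymphodepletion in M-MDSC, while Cdc20 and Ncapd2 did not pass. They lie at chr10:69352939-69353018 (Cdk1, minus strand), chr11:99024190-99024269 (Top2a, minus), chr19:37376302-37376381 (Kif11, plus), chr4:118437353-118437432 (Cdc20, minus) and chr6:125191702-125191781 (Ncapd2, minus), each written 5′ to 3′ in the gene's direction with the motif matches in capitals.
Cdk1: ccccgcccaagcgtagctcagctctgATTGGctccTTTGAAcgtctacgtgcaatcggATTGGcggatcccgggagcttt
Top2a: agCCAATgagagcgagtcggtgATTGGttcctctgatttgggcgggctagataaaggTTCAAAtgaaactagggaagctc
Kif11: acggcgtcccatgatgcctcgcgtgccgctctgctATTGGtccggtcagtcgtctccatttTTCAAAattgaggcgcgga
Cdc20: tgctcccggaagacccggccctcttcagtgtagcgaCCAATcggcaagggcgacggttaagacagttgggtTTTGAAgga
Ncapd2: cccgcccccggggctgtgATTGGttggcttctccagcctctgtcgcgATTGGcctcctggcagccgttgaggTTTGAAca

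How mitotic genes differed between untreated and lymphodepleted mice was asked first in M-MDSC. In these cells 26 of the 49 members tested rose and 0 fell, while over all genes tested 2.54% rose and 0.468% fell. The fitted change was above 0 for all 49 members (43.2% of all genes), with a median of 2.24 on the log2 scale, or 4.74-fold, against -0.04 over all genes. For 46 members every LD library read above every Ctrl library, which holds for 10.6% of all genes. The groups overlapped for Espl1, Kif20b and Racgap1. The changes ran from 0.28 (Racgap1 and Bub3) to 3.92 (Kif18b).

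**Figure D1:**
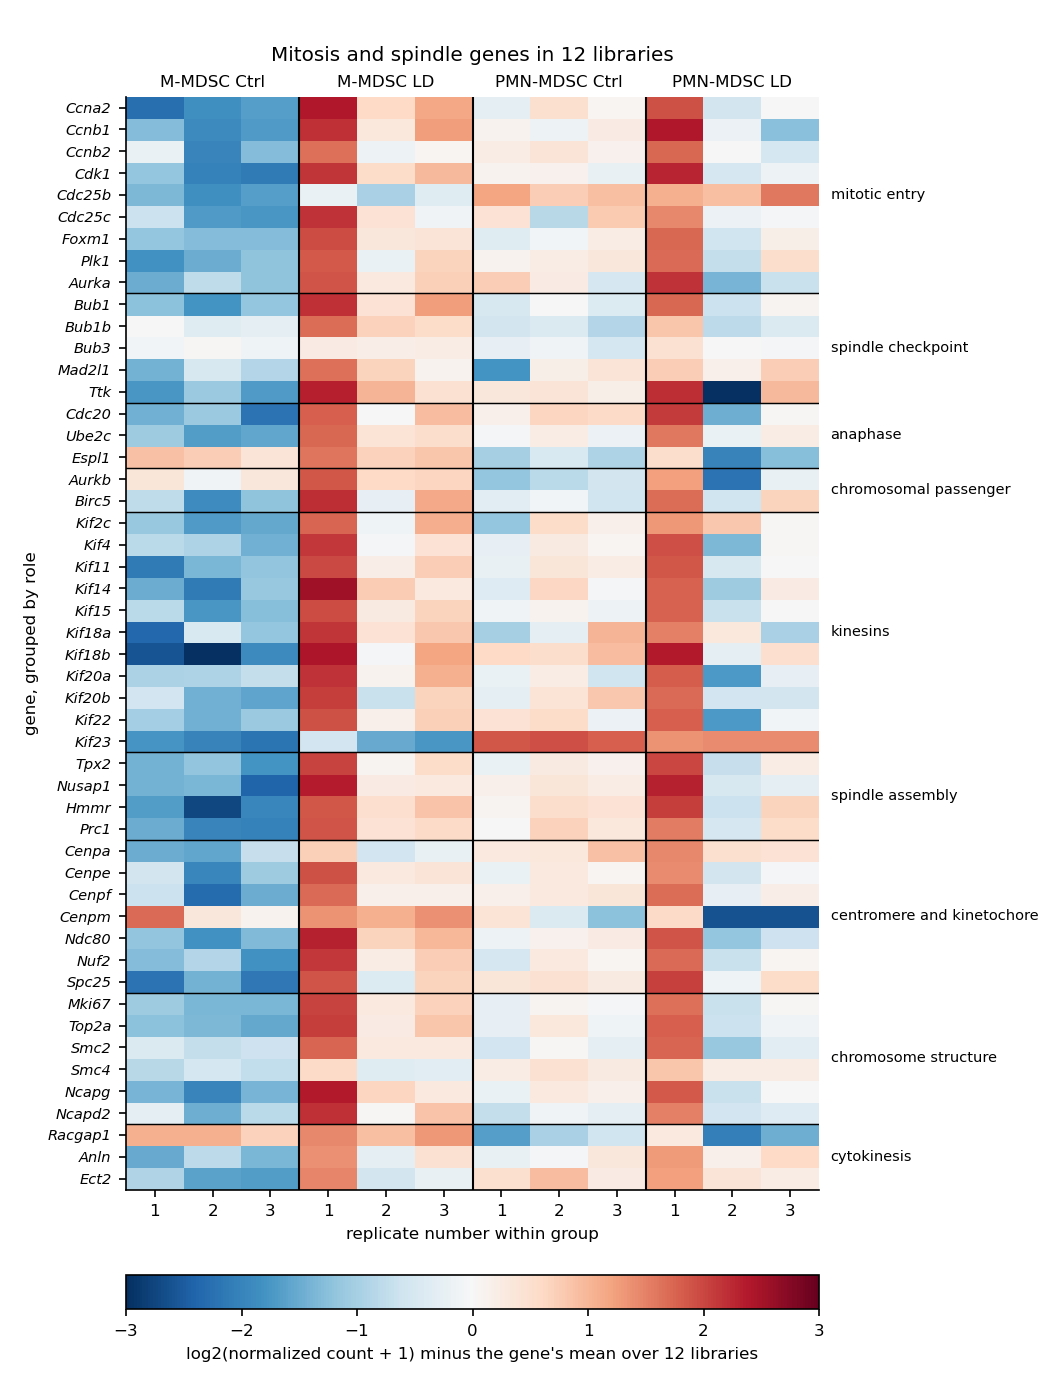
Colours give log2(normalized count + 1) of each of the 50 members minus that gene's mean over the 12 libraries, with a colour scale that stops at -3 and 3, members in rows by role and libraries in columns by group and replicate number. M-MDSC Ctrl is low for most rows, replicate 1 of M-MDSC LD and of PMN-MDSC LD is high for most, and Kif23, Racgap1 and Espl1 follow the population instead.

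Among genes of mitotic entry, 6 of 9 rose in M-MDSC. Ccna2, the cyclin of S and G2 phases, read 24, 32.5 and 37 in Ctrl against 629.5, 180 and 266 in LD (3.30 ± 0.54, limma adjusted p = 0.00311). Ccnb1, a partner of Cdk1, read 13.6, 8.6 and 10.1 in Ctrl and 163, 44.2 and 84.7 in LD, a change of 2.89 ± 0.72 (limma adjusted p = 0.0423). Cdk1 itself read 22, 11.5 and 10.7 in Ctrl and 223.8, 73.9 and 99.5 in LD, a change of 2.99 ± 0.61 (limma adjusted p = 0.0141). For these 3 genes the lowest LD library was above the highest Ctrl library, and LD replicate 1 was the highest. The second B-type cyclin, Ccnb2, had the same order of libraries but a high Ctrl replicate (85.6, 23.9 and 39.3 against 308.6, 87.5 and 102.5) and did not pass (1.68 ± 0.58, limma adjusted p = 0.163).

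Of the regulators of mitotic entry, Foxm1, Plk1 and Cdc25b rose. Foxm1, a transcription factor of G2 genes, read 61.6, 55.5 and 56.1 in Ctrl against 545.5, 175.8 and 183.2 in LD (2.15 ± 0.50, limma adjusted p = 0.0286). Plk1, a kinase of centrosomes and kinetochores, read 18.8, 23.9 and 29.2 in Ctrl against 249.9, 59.4 and 110.3 in LD (2.27 ± 0.55, limma adjusted p = 0.0357). Cdc25b, a phosphatase that activates Cdk1, had a smaller change, from 59.7, 42.1 and 48.2 to 134, 78.1 and 120.2 (1.11 ± 0.25, limma adjusted p = 0.0258). For these 3 genes as well each LD library was above each Ctrl library. Aurka, the centrosome kinase, was also higher in each LD library (138.4, 45 and 60.1 against 12.3, 21.1 and 15.1) but did not pass (2.12 ± 0.73, limma adjusted p = 0.159), nor did Cdc25c (2.20 ± 0.72, limma adjusted p = 0.13), which read at most 7.1 in Ctrl.

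Of the 5 checkpoint genes only Bub1, a kinetochore kinase, rose, from 20.1, 13.4 and 21.3 to 228.2, 66.2 and 118.2 (2.69 ± 0.55, limma adjusted p = 0.0134). Bub1b, part of the complex that inhibits Cdc20, read 210.8, 165.5 and 175.6 in Ctrl against 683.8, 345.6 and 313.3 in LD (1.19 ± 0.36, limma adjusted p = 0.0936). Bub3, which recruits both kinases to kinetochores, read 382, 410.5 and 365.8 in Ctrl and 478.8, 458.5 and 471.9 in LD. Its 3 LD libraries varied the least of all members (SD 0.03 on the log2 scale) and its change was among the smallest, 0.28 ± 0.15 (limma adjusted p = 0.482). Mad2l1, an inhibitor of Cdc20, changed by 1.74 ± 0.55 (limma adjusted p = 0.113) and Ttk, the kinase upstream of the checkpoint, by 2.79 ± 1.01 (limma adjusted p = 0.188).

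At the step from metaphase to anaphase, Ube2c, a ubiquitin-conjugating enzyme of the anaphase-promoting complex, rose from 37, 23.9 and 26.4 to 263.7, 105.3 and 115.3 (2.33 ± 0.44, limma adjusted p = 0.0089). Cdc20, the activator of that complex, read 14.9, 19.1 and 8.4 in Ctrl and 149.2, 42.5 and 80.8 in LD, and did not pass (2.49 ± 0.70, limma adjusted p = 0.0734). Both genes were higher in each LD library than in any Ctrl library. Cdc20 overlaps Elovl1 on the opposite strand (mean 375.3 in M-MDSC Ctrl), and since strand-specific counting is not stated, reads of the 2 genes cannot be told apart where they overlap. The same limit holds for Ccna2 with Exosc9 (mean 201.3 in M-MDSC Ctrl), Ncapg with Lcorl (229.6), Kif20a with Cdc23 (241.5), Kif4 with Pdzd11 (58.2), Cdc25b with Spef1 (37.5), Prc1 with Rccd1 (17.4), Kif18a with Mettl15 (11.2) and Nusap1 with Oip5 (0.4). Espl1, the protease separase that cuts cohesin, read 286, 261.2 and 202 in Ctrl and 478.1, 252.2 and 276.8 in LD, so its groups overlapped (0.38 ± 0.47, limma adjusted p = 0.868).

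Neither member of the chromosomal passenger complex passed. Birc5 (survivin) read 32.4, 14.4 and 23.6 in Ctrl against 261.5, 46.7 and 123.1 in LD (2.32 ± 0.60, limma adjusted p = 0.0523), and Aurkb, its kinase, 84.3, 61.2 and 83 in Ctrl against 239.8, 100.2 and 103.4 in LD (0.84 ± 0.63, limma adjusted p = 0.706). Neither gene's groups overlapped.

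Of 11 kinesins, 5 rose. Kif18b, which shortens astral microtubules, had the largest change of all members, from 5.2, 1.9 and 9 to 199.2, 35.7 and 83.7 (3.92 ± 0.70, limma adjusted p = 0.00611). Kif11, the motor that pushes spindle poles apart, read 53.2, 90.9 and 102.1 in Ctrl against 928, 270 and 390.1 in LD (2.53 ± 0.52, limma adjusted p = 0.0139). Kif2c, Kif14 and Kif15 rose by 2.36, 2.78 and 2.24 on the log2 scale. Kif20a, a kinesin of the central spindle, read 35.7, 36.4 and 42.6 in Ctrl and 319.5, 76.4 and 148.8 in LD but did not pass (1.99 ± 0.68, limma adjusted p = 0.156). Kif4, Kif18a, Kif20b and Kif22 did not pass either, at 1.89 to 2.46. Kif23, the motor subunit of the centralspindlin complex, stood out by its small change of 0.71 ± 0.22 (391.7, 328.2 and 291.7 to 896.8, 468.7 and 394.1, limma adjusted p = 0.0975).

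All 4 spindle assembly genes rose. Tpx2, which activates Aurka on microtubules, read 57.7, 68.9 and 44.9 in Ctrl against 646.9, 165.6 and 229.5 in LD (2.35 ± 0.56, limma adjusted p = 0.0328). Prc1, which bundles the antiparallel microtubules of the midzone, read 44.7, 31.6 and 30.3 in Ctrl and 471.6, 172.4 and 188.2 in LD. Hmmr, a microtubule-associated protein of spindle poles, read 24.6, 11.5 and 20.2 in Ctrl against 299.9, 115.5 and 148.8 in LD (3.20 ± 0.55, limma adjusted p = 0.00448). For each of these 3 genes the lowest LD library was well above the highest Ctrl library. Nusap1, which stabilises spindle microtubules, rose by 2.70 ± 0.66 (limma adjusted p = 0.0396).

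Of 6 centromere and kinetochore genes tested, 5 rose. Ndc80, the outer kinetochore protein that holds microtubules, read 30.5, 19.1 and 27.5 in Ctrl against 353.5, 112.1 and 140.9 in LD (2.77 ± 0.62, limma adjusted p = 0.0252), and its partners Nuf2 and Spc25 rose by 2.36 and 2.63. Cenpe, a kinetochore motor, read 185.5, 69.9 and 129 in Ctrl against 1020.7, 335.4 and 357.6 in LD (2.05 ± 0.49, limma adjusted p = 0.0328), and Cenpf, a coat protein of kinetochores, rose by 2.14. Cenpa, the histone variant that marks centromeres, was the exception at 44.1, 42.1 and 78 in Ctrl against 209.4, 84.1 and 108.4 in LD (1.22 ± 0.37, limma adjusted p = 0.0959). Its groups did not overlap, but they lay closer than those of the 5 genes that rose.

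Of 6 chromosome structure genes, 3 rose. Top2a, the topoisomerase that untangles sister chromatids, read 282.1, 258.4 and 226.1 in Ctrl against 2787.6, 779.5 and 1175.3 in LD (2.42 ± 0.50, limma adjusted p = 0.0146). Mki67, which coats mitotic chromosomes, rose 4.8-fold, and Ncapg, a condensin subunit, rose by 2.69 ± 0.58 (limma adjusted p = 0.0205). The other condensin subunits did not pass. Smc4 read 775, 961.7 and 821.3 in Ctrl against 2068.9, 1064.8 and 1101.4 in LD (0.66 ± 0.22, limma adjusted p = 0.137), Ncapd2 185.5, 81.3 and 127.9 in Ctrl against 1025, 231 and 409.8 in LD (1.88 ± 0.54, limma adjusted p = 0.0789), and Smc2 changed by 1.37 ± 0.55 (limma adjusted p = 0.263). The small nucleolar gene Scarna10 lies within Ncapd2 on the same strand.

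Of 3 cytokinesis genes, Anln, a scaffold of the contractile ring, rose from 69.4, 115.8 and 76.3 to 519.4, 165.6 and 272.9 (1.74 ± 0.37, limma adjusted p = 0.0167). Ect2, which activates RhoA at the division plane, changed by 1.62 ± 0.45 (limma adjusted p = 0.0708). Racgap1, the partner of Kif23 in centralspindlin, read 648.5, 650.7 and 504.9 in Ctrl and 849, 579.1 and 772.4 in LD. Its groups overlapped and it did not pass (0.28 ± 0.43, limma adjusted p = 0.915).

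The size of the change differed between LD libraries. All 49 members tested were highest in replicate 1, where the median member read 9.45 times the Ctrl mean, against 2.85 and 3.79 times in replicates 2 and 3. Replicates 2 and 3 were still above all 3 Ctrl libraries for 46 and 48 of 49 members. Without M-MDSC LD replicate 1 the median change was 1.73 and 5 members passed (Ccna2, Ube2c, Kif18b, Hmmr and Prc1), the same 5 that passed whichever of the 12 libraries was left out. In that fit 2.11% of all genes were called in either direction. Without LD replicate 1 of both populations, 27 members rose (4.13% of all genes called), of which 24 were among the 26. The count was 13, 8 and 7 without M-MDSC Ctrl replicate 1, 2 or 3 (1.73%, 2.12% and 1.79% of all genes). It was 15 without M-MDSC LD replicate 3 (1.95%). The fold changes of Kif14 (2.11), Kif18b (3.30), Nusap1 (2.01) and Ncapg (2.05), given here on the log2 scale without M-MDSC LD replicate 1, moved by over 1.5 times.

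**Figure D2:**
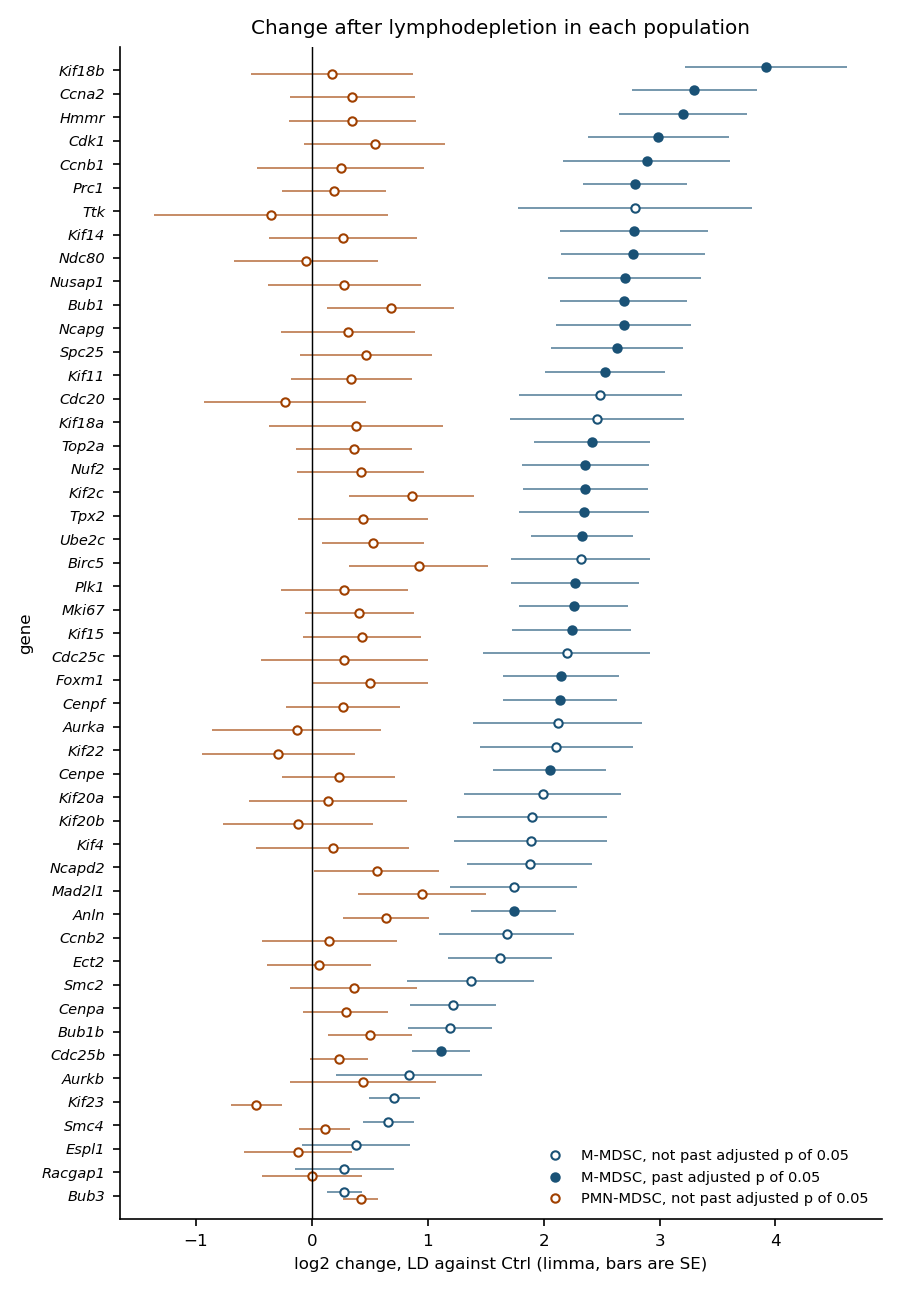
The horizontal axis gives the log2 change of LD against Ctrl with its SE for each of the 49 members tested, in M-MDSC (blue, filled where the adjusted p is under 0.05) and in PMN-MDSC (orange). All M-MDSC values are above 0, up to 3.92, while those in PMN-MDSC lie around 0 and 0 of 49 are called.

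Markers of other cells moved in the same M-MDSC libraries. The summed level of 11 progenitor genes was 556.4 to 643.4 in M-MDSC Ctrl. In LD replicates 1, 2 and 3 it was 8058.4, 2050.6 and 2540.7. Mpo (4385.6), Elane (1657.5) and Prtn3 (942.5) made most of the sum in LD replicate 1. Limma called these genes, Kit, Myb and Cd63 higher, while Cd34, Ctsg and Flt3 did not pass. Flt3 read 258.1, 366.5 and 305.7 in Ctrl and 173.1, 367.7 and 285.7 in LD. Gata2 (at most 2.2 in M-MDSC) and Sox4 (at most 16.7) were under the minimum level. The 6 PMN-MDSC markers measured summed to 5553.8 to 6246.4 in M-MDSC Ctrl and to 38515, 9267.2 and 15709.3 in LD, against at least 359472.2 in PMN-MDSC. In LD replicate 1, S100a9 (23934) and S100a8 (9936.1) made most of that sum. Limma called both higher, and Retnlg (at most 51.2 in M-MDSC). Csf3r (3674.9 to 4479.1 in M-MDSC LD), Cxcr2 (at most 89.1) and Mmp9 (at most 210.8) did not pass. Both sums were thus highest in the library where all 49 members were highest, and their part in the result was not tested. The 7 M-MDSC markers summed to 55662 to 61390.7 in Ctrl and 49942 to 53932.7 in LD, a range that overlaps PMN-MDSC LD (44397.6 to 54864.8). Of the PMN-MDSC LD sums, Itgam alone made 35377.4, 41058.2 and 47199.9. Of 13 erythroid genes the 4 globins were at 0 in all groups, and the list summed to 49.8 to 64.9 in M-MDSC Ctrl and 121.2 to 347.7 in LD, below the level of Mki67 alone. The 6 macrophage genes measured summed to 139.1 to 200 in M-MDSC Ctrl and 405.9 to 473 in LD, where C1qa (2.04, limma adjusted p = 0.0396), C1qc (1.63, 0.0402) and Vcam1 (1.79, 0.0451) rose. The 7 dendritic cell genes summed to 1120 to 1354.2 in Ctrl and 1728 to 1922.4 in LD, where Itgax, an integrin, rose by 0.88 (limma adjusted p = 0.00611). Bst2 (0.53) and Clec9a (0.69) did not pass, nor did Flt3 (-0.22) and Zbtb46 (-0.45). Xcr1 and Siglech read at most 2.9 and 0.7 in M-MDSC. The sums of the macrophage and dendritic lists were higher in all 3 LD libraries, and their part in the result was not tested either. The 10 B and plasma cell genes summed to 2647.2 to 3368.2 in Ctrl and 2072.6 to 2924.3 in LD.

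In PMN-MDSC, limma called 0 of the 49 members after lymphodepletion, while 7.17% of all genes rose and 8.51% fell. At an unadjusted p under 0.05 there were 2 members (Bub3 and Kif23), and edgeR and DESeq2 called 0. The median change was 0.29, with 41 members above 0 (45.7% of all genes). The 3 LD libraries disagreed. In replicate 1 the median member read 3.24 times the Ctrl mean and 47 members were above all Ctrl libraries, whereas in replicates 2 and 3 it read 0.655 and 0.94 times that mean, with 36 and 11 members below and 2 and 13 above all Ctrl libraries. Without PMN-MDSC LD replicate 1 the median change was -0.33 and 9 members were above 0.

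The disagreement between libraries ran through each role. Mki67 read 1688.3, 2097.1 and 1901.1 in PMN-MDSC Ctrl and 6242, 1260.5 and 2024.9 in LD (0.41 ± 0.47, limma adjusted p = 0.585). Ccna2 read 99, 167 and 122.9 in Ctrl against 446.3, 80.9 and 117.8 in LD (0.35 ± 0.54, limma adjusted p = 0.696). Aurka read 61.2, 43.1 and 25.5 in Ctrl against 166.4, 13.2 and 22.4 in LD (-0.13 ± 0.73, limma adjusted p = 0.926). In each case LD replicate 1 was above the Ctrl range and replicate 2 below it. Ttk varied the most (SD 2.91 on the log2 scale in LD), with 30.6, 31.6 and 27.1 in Ctrl and 115, 1.5 and 47.7 in LD, and had the change farthest below 0 after Kif23 (-0.35 ± 1.01, limma adjusted p = 0.847).

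Among the 3 LD libraries replicate 1 was the highest for 46 of the 49 members and replicate 2 the lowest for 41. Cdk1 read 54.1, 54.5 and 43.1 in Ctrl and 246.2, 35.3 and 44.9 in LD. Plk1 read 73.4, 80 and 87.8 in Ctrl and 225.9, 41.2 and 99.6 in LD. Top2a read 556, 826.2 and 609.8 in Ctrl and 2279.1, 423.6 and 615.6 in LD. The largest fitted changes were in Mad2l1 (0.95 ± 0.55, limma adjusted p = 0.256), Birc5 (0.92 ± 0.60, limma adjusted p = 0.325) and Kif2c (0.86 ± 0.54, limma adjusted p = 0.298). The median SD over members on the log2 scale was 1.21 in PMN-MDSC LD and 0.91 in M-MDSC LD, against 0.27 and 0.34 in the respective Ctrl groups.

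Replicate 1 was the highest LD library for most genes of mitotic entry and exit too. Ccnb1 read 37.7, 31.6 and 41.5 in Ctrl against 189.4, 30.9 and 14 in LD (0.25 ± 0.72, limma adjusted p = 0.846). Foxm1 read 107.1, 131.8 and 161.2 in Ctrl against 459.9, 91.2 and 155.7 in LD (0.50 ± 0.50, limma adjusted p = 0.527). Cdc20 read 46.9, 66.8 and 63.8 in Ctrl against 185.3, 14.7 and 43.5 in LD (-0.23 ± 0.70, limma adjusted p = 0.855). Replicates 2 and 3 of LD were thus within or below the Ctrl range for all 3. Ube2c read 77.5, 92.3 and 70.2 in Ctrl against 240.8, 69.1 and 92.6 in LD (0.53 ± 0.44, limma adjusted p = 0.437). Cdc25b was the exception among entry genes, since its highest library was LD replicate 3 (353, 257.5 and 290.5 in Ctrl against 321.9, 289.8 and 461.4 in LD, with a change of 0.23 ± 0.25 and limma adjusted p = 0.566).

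Several spindle and kinetochore genes had this order of libraries. Kif11 read 201, 305 and 276.1 in Ctrl and 857.5, 169.2 and 235.6 in LD. Tpx2 read 136.7, 189 and 172.4 in Ctrl and 628.9, 97.1 and 183.7 in LD. Ndc80 read 63.2, 77.3 and 83 in Ctrl against 261, 30.9 and 44.9 in LD (-0.05 ± 0.62, limma adjusted p = 0.969). For these 3 genes LD replicate 1 was the highest of the PMN-MDSC libraries and LD replicate 2 the lowest. Of the LD libraries replicate 3 was the lowest for Cenpa (342.2, 176.5 and 169.7), Kif2c (106.9, 75 and 43.5) and Kif18a (51.4, 22.1 and 8.4). The condensin subunit Smc4 and the ring scaffold Anln had narrower ranges. Smc4 read 1597.5, 1880 and 1663.3 in Ctrl against 2458.9, 1600.3 and 1605.6 in LD (0.11 ± 0.22, limma adjusted p = 0.769), and Anln 170.4, 195.1 and 253.8 in Ctrl against 481.5, 220.6 and 301.5 in LD (0.64 ± 0.37, limma adjusted p = 0.255).

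In 2 members the PMN-MDSC groups did not overlap, 1 in each direction (14.1% of all genes higher and 17.8% lower). Bub3 read 336.6, 374.4 and 276.1 in Ctrl against 553.2, 395.7 and 385.6 in LD (0.42 ± 0.15, limma adjusted p = 0.0747). Kif23 read 4866.9, 5082.8 and 4622.6 in Ctrl against 3377.3, 3531.6 and 3529.6 in LD (-0.48 ± 0.22, limma adjusted p = 0.145). Kif23 varied the least of all members over the 3 LD libraries (SD 0.04 on the log2 scale). It passed without LD replicate 1 of both populations, as did Espl1, both lower in LD, where 22.1% of all genes were called in either direction. The progenitor genes summed to 783.4 to 881.6 in the untreated PMN-MDSC libraries and to 1966.6, 1194.4 and 1478 after lymphodepletion. Cd63 made most of the Ctrl sum (547.8 to 663.6), read 936, 847.2 and 894.7 in LD and did not pass (limma adjusted p = 0.461). Limma called Mpo (3.99, adjusted p = 0.015), Elane (3.72, 0.00653) and Prtn3 (2.12, 0.0233) higher, and no other progenitor gene tested. Mpo read at most 8 in Ctrl and 278.6, 8.8 and 39.3 in LD. The progenitor sum too was thus highest in replicate 1, and the part of these genes in its high values was not tested.

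**Figure D3:**
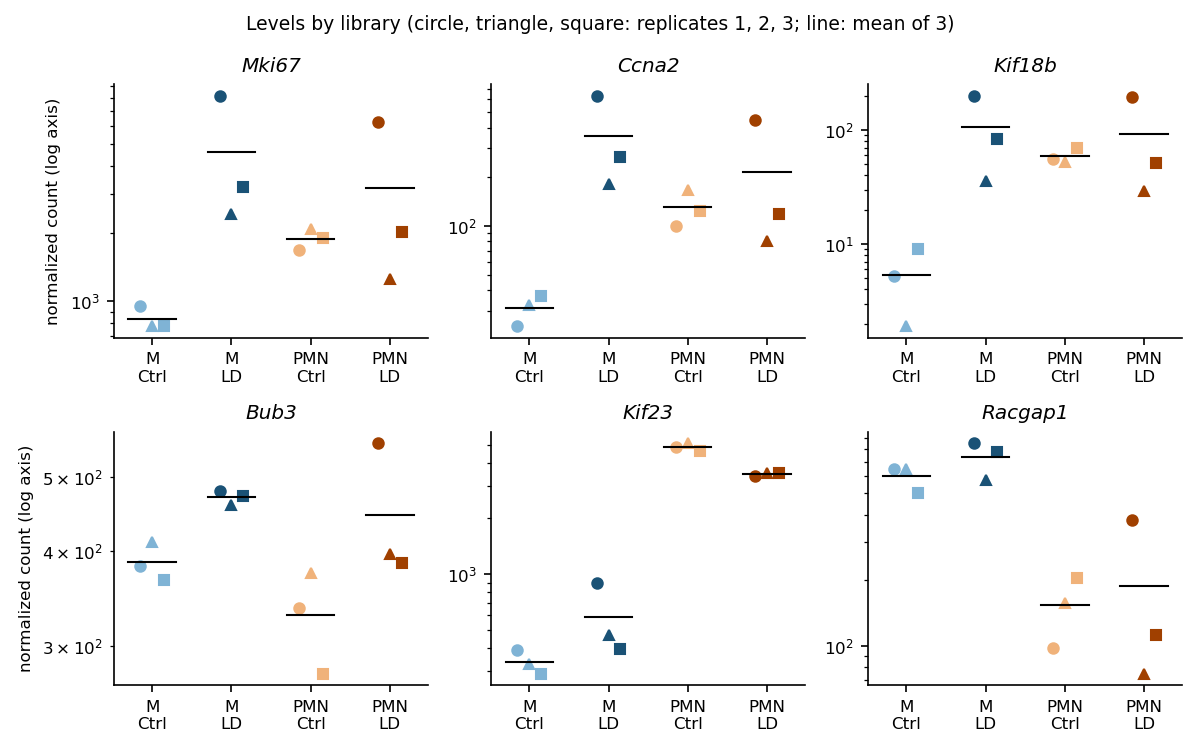
Points give the normalized count of Mki67, Ccna2, Kif18b, Bub3, Kif23 and Racgap1 in each library on a log axis (circle, triangle and square for replicates 1, 2 and 3) with a line at the mean of the 3 libraries, for M-MDSC (blue) and PMN-MDSC (orange). For Mki67, Ccna2 and Kif18b the M-MDSC LD points lie above M-MDSC Ctrl, while in PMN-MDSC the Ctrl points lie between LD replicate 1 and LD replicate 2.

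The difference between the LD change in M-MDSC and that in PMN-MDSC was tested gene by gene. It passed for 1 of 49 members, where 1.18% of all genes passed toward a larger change in M-MDSC and 1.07% toward PMN-MDSC. That member was Prc1 (2.60 ± 0.64, limma adjusted p = 0.0487), whose change was 2.79 ± 0.45 in M-MDSC (limma adjusted p = 0.00307) and 0.19 ± 0.45 in PMN-MDSC (128.5, 204.8 and 158 to 367.9, 89.7 and 186.5). The fitted difference was above 0 for 48 of 49 members (53.4% of all genes), with a median of 1.87, and below 0 for Bub3 (-0.14 ± 0.22). Next after Prc1 came Kif23 (1.19 ± 0.30, limma adjusted p = 0.0564), Ccna2 (2.95 ± 0.76, 0.0589), Kif18b (3.75 ± 0.99, 0.0626) and Hmmr (2.85 ± 0.77, 0.0702).

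How many members passed depended on the libraries and on the fit. Without PMN-MDSC LD replicate 1, 31 passed (7.48% of all genes), Prc1, Ccna2, Kif18b, Hmmr and Kif23 among them. Without LD replicate 1 of both populations 27 did (6.95% of all genes). With all 12 libraries kept, 12 passed with sample weights (4.71%) and 28 with a block for the presumed animal (4.82%). Prc1 was lost when any of 10 of the 12 libraries was left out.

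M-MDSC and PMN-MDSC of untreated mice were compared next on the deposited scale. Most members were lower in M-MDSC. Limma called 32 of 49 lower and 2 higher, against 36.8% and 38.8% of all genes, with a median of -1.44 (2.72-fold higher in PMN-MDSC) against 0.06 over all genes. The fitted difference was above 0 for 5 members (51.6% of all genes). For 38 members every M-MDSC library was below every PMN-MDSC library (39.1% of all genes), and for 4 above (41.9%). These counts depend on the scaling. Dividing by total reads, an alternative chosen after seeing the data, moved the median of all genes by 0.62. It left the members' median at -0.83 and gave 9 members lower and 5 higher, with 77.9% of all genes called in either direction. Mad2l1, Smc2 and Ncapd2 then changed sign (0.08, 0.31 and 0.15), and none of these 3 passed on either scale.

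The largest difference was in Kif23 (-3.85 ± 0.22, 14.5-fold, limma adjusted p = 6.7e-10). Kif18b read 5.2, 1.9 and 9 in M-MDSC and 56.1, 52.7 and 70.2 in PMN-MDSC (-3.42 ± 0.70, limma adjusted p = 4.5e-04). Cdc25b followed (-2.56 ± 0.25, limma adjusted p = 3.0e-07), with 353, 257.5 and 290.5 in PMN-MDSC Ctrl. Hmmr read 85.7, 117.8 and 110.1 in PMN-MDSC Ctrl (-2.47 ± 0.55, limma adjusted p = 8.8e-04). For these 4 genes the M-MDSC libraries were well below the PMN-MDSC libraries.

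By role, lower calls in M-MDSC Ctrl covered 7 of 9 mitotic entry genes, 7 of 11 kinesins, all 4 spindle assembly genes and all 6 centromere and kinetochore genes tested. They covered 0 of 5 checkpoint genes and neither passenger gene. Bub1b read 145.9, 156.4 and 114.9 in PMN-MDSC Ctrl, below M-MDSC Ctrl (0.41 ± 0.36, limma adjusted p = 0.312), and Aurkb 28.6, 36.9 and 44.7 (1.04 ± 0.63, limma adjusted p = 0.147). The 2 members higher in M-MDSC were Racgap1 (2.01 ± 0.43, limma adjusted p = 7.0e-04) and Espl1 (1.46 ± 0.47, limma adjusted p = 0.0111). Espl1 read 77.5, 112.5 and 81.4 in PMN-MDSC Ctrl, less than the lowest M-MDSC Ctrl library.

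In lymphodepleted mice limma called 3 of 49 members higher in M-MDSC (38.8% of all genes) and 2 lower (36.1%). The median was 0.59, with 42 members above 0 (52.6% of all genes). The groups did not overlap for 2 members higher (38.7%) and 2 lower (36.5%). The 3 higher were Racgap1 (2.29 ± 0.43, limma adjusted p = 2.4e-04), Espl1 (1.96 ± 0.47, limma adjusted p = 0.00154) and Bub1b (1.10 ± 0.36, limma adjusted p = 0.0116). The 2 lower were Kif23 (-2.66 ± 0.22, limma adjusted p = 3.8e-08) and Cdc25b (-1.69 ± 0.25, limma adjusted p = 2.4e-05). With M-MDSC LD replicate 1 left out, 2 members were called higher and 5 lower, and the median was 0.07 with 25 of 49 above 0. In that fit 71.8% of all genes were called in either direction. Without PMN-MDSC LD replicate 1, 28 were called higher and 2 lower (74.9% of all genes called), and without both 17 and 4 (73.2%). With scaling by total reads it was 22 and 2 (79.7%), the median of all genes then being 0.83. In each of these fits the share of members called was below that of all genes. Bub1b was lost without M-MDSC LD replicate 1 or PMN-MDSC LD replicate 2.

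**Figure D4:**
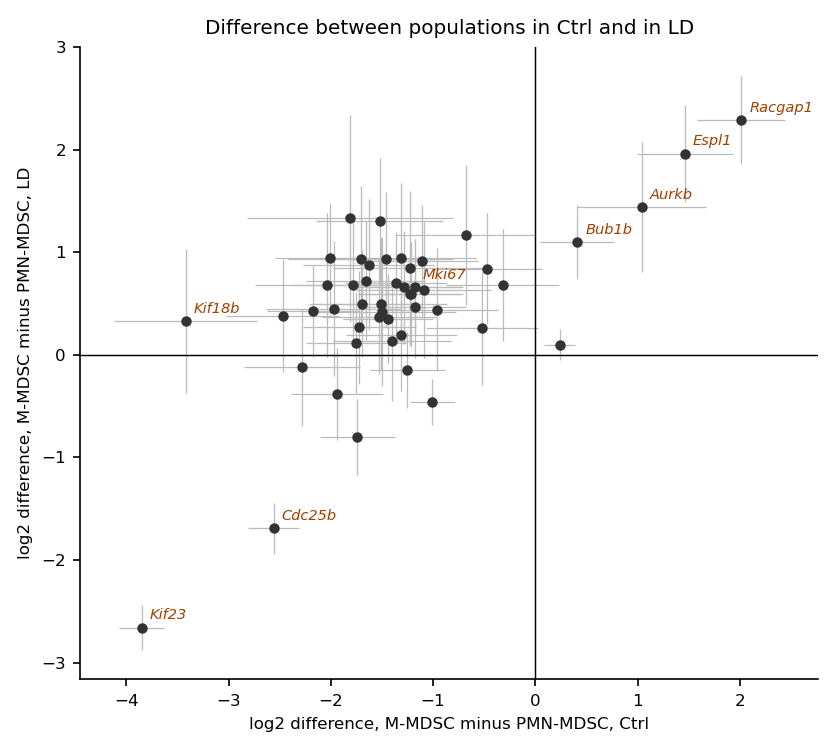
Each point is 1 of the 49 members tested, with its log2 difference of M-MDSC minus PMN-MDSC in Ctrl on the horizontal axis and in LD on the vertical axis, and bars for the SE. Most points lie left of 0 in Ctrl and above 0 in LD, while Kif23 and Cdc25b are below 0 and Racgap1 and Espl1 above 0 on both axes.

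Kif23 and Racgap1, the kinesin and the GTPase-activating protein that together form centralspindlin, lay at opposite ends of this comparison. Kif23 (build mm10, chromosome 9, 61915905 to 61946774, minus strand) read 291.7 to 391.7 in M-MDSC Ctrl and 4622.6 to 5082.8 in PMN-MDSC Ctrl. Racgap1 (chromosome 15, 99620496 to 99651656, minus strand) read 97.9, 158.2 and 205.9 in PMN-MDSC Ctrl and 380.1, 75 and 112.2 in PMN-MDSC LD, below all M-MDSC libraries. In PMN-MDSC Kif23 did not follow the order of the LD libraries that Racgap1 and most members showed. Divided by the length of its exons, Kif23 was the most abundant member in PMN-MDSC Ctrl (615 per kb) and LD (440 per kb), above Smc4 (329 and 362 per kb) and Mki67 (188 and 316 per kb). In M-MDSC Ctrl the order was Smc4 (164 per kb), Racgap1 (84.9) and Mki67 (83), and Kif23 was at 42.7, while in M-MDSC LD Mki67 was highest (456 per kb). The gene downstream of Kif23 on the same strand, Rplp1, lies 1362 bases away and had the opposite pattern, with means of 2308.3 in M-MDSC Ctrl and 697.9 in PMN-MDSC Ctrl.

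Other genes of the division machinery were listed by function beside the 50 members, and 131 of 139 could be tested. After lymphodepletion 17 of the 131 rose and 0 fell in M-MDSC, where 2.54% and 0.468% of all genes did. In PMN-MDSC 10 (7.63%) rose and 4 (3.05%) fell, against 7.17% and 8.51%, so the share that rose was near that of all genes. Without M-MDSC LD replicate 1, 6 of the 17 still passed (Kifc1, Spag5, Shcbp1, Ncaph, E2f7 and Ccnd2), and without LD replicate 1 of both populations 16 did. With all libraries, the 17 were 8 of 26 spindle and centrosome genes, 3 of 9 cytokinesis genes, 3 of 17 chromosome structure genes, 2 of 18 genes of mitotic transcription and its brakes, and 1 of 10 G1 cyclins and kinases. Kifc1, a minus-end spindle motor, rose from 20.9 ± 1.3 to 117.0 ± 61.0 (SD, n = 3; 2.31 ± 0.41, limma adjusted p = 0.00611), and also passed for the difference between populations (2.45 ± 0.58, limma adjusted p = 0.0438). With M-MDSC LD replicate 1 left out, Kifc1 did not pass for that difference (2.06, limma adjusted p = 0.0764). Spag5 and Aspm, a spindle and a spindle pole protein, rose by 2.73 and 2.49. Shcbp1, Cit and Iqgap3, all of the cleavage furrow or midbody, rose by 3.22, 2.5 and 2.69.

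Outside the spindle, Ncaph, the condensin subunit that partners Ncapg, rose from 13.2 ± 7.4 to 148.7 ± 104.0 (3.37 ± 0.64, limma adjusted p = 0.00967). E2f7, a repressor of cell cycle genes, rose from 7.1 ± 1.7 to 100.9 ± 85.7 (3.37 ± 0.61, limma adjusted p = 0.00765), and E2f8, its relative, by 1.45 ± 0.37 (limma adjusted p = 0.049). Ccnd2, a G1 cyclin, rose from 18 ± 8.9 to 77.6 ± 27.3 (2.13 ± 0.34, limma adjusted p = 0.00301), still far under its level in PMN-MDSC (1534.5 ± 194.9 in Ctrl and 1764.1 ± 362.9 in LD). In M-MDSC 0 of 26 other kinetochore genes, 0 of 16 genes of the anaphase-promoting complex and 0 of 9 CDK inhibitors and quiescence genes passed. With 2.54% of all genes rising and 0.468% falling, 0 calls in lists this short do not set them apart from all genes. The kinetochore list had a median of 1.25, with Ska1 (3.04 ± 0.82, limma adjusted p = 0.0635) nearest to the threshold, and the anaphase-promoting complex list a median of 0.

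Of the 14 genes called in PMN-MDSC, Rad21, a cohesin subunit, was called in M-MDSC as well (0.45, limma adjusted p = 0.0323, against 0.38 and 0.0286 in PMN-MDSC). Ccnd3, the D-type cyclin of granulocytes, rose from 3879.9 ± 507.7 to 5761.2 ± 276.0 (0.58 ± 0.10, limma adjusted p = 0.00174). Cdkn1a (p21), a CDK inhibitor, rose from 14.5 ± 2.6 to 35.2 ± 12.3 (1.17 ± 0.34, limma adjusted p = 0.0335), while in M-MDSC it read 176.1 ± 31.3 and 167.0 ± 51.7. Btg1 and Btg2, antiproliferative factors, both fell by 0.39 on the log2 scale (Btg1 29654.9 ± 427.7 to 22733.8 ± 1443.7, limma adjusted p = 0.0122, and Btg2 at 0.036). Zwint, which joins the kinetochore to the checkpoint, rose from 77.2 ± 7.9 to 164.4 ± 59.1 (1.01 ± 0.26, limma adjusted p = 0.0175), and Mcph1, a regulator of chromosome condensation, fell from 118.6 ± 8.4 to 55.3 ± 5.2. The other genes were E2f2, E2f3, Lin54, Rad21, Sept7, Sept9 and Rhoa, which rose by 0.36 (Sept7) to 0.91 (E2f3), and Rb1, which fell by 0.28. Without PMN-MDSC LD replicate 1, Cdkn1a (0.99, limma adjusted p = 0.0731), Btg2 (-0.28, 0.0967) and Rad21 (0.30, 0.0721) did not pass and the other 11 did.

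Whether the promoter motifs went with the change in M-MDSC was described over the 42 members with a promoter that were tested. Of 30 with both motifs, such as the 5 printed above, 15 rose, with a median change of 2.20. Of 12 without both, 8 rose, with a median of 2.34. Kif23, Racgap1, Bub3 and Espl1, which did not follow the other members, hold both motifs as well.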

How the data were processed

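The 12 libraries come as a single deposited table of 23479 genes. Its values are a signal made by the authors, namely normalized counts (reads over a size factor per library). Each value was a whole multiple of the value of 1 read in its sample (100% within 0.001 reads), so reads were recovered for count tests. Ribosomal RNA had been depleted, per the labels' protocols. The submitters' processing notes name mm10, STAR 2.5.3a, HTSeq 0.6.1 and DESeq2, without their roles. Strand-specific counting is not stated.

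The study's design text gives 3 mice per treatment, but no label ties a library to a mouse. P-values therefore measure the spread between these libraries, which may be technical, and M-MDSC and PMN-MDSC libraries may share mice. Every pair of libraries of a group differed by more than sampling noise. Read totals set the counting error only, since reads without molecular identifiers are not independent molecules.

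Changes were fitted with limma 3.58.1 (R 4.3.3) on log2(normalized count + 1), which understates changes of low genes, with 1 mean per group, a trended empirical Bayes spread pooled over the 4 groups and 8 residual degrees of freedom. Two-sided p-values were Benjamini-Hochberg adjusted over 11122 genes with a mean of at least 10. The procedure was tested on simulated data that held no outlying library and no difference between the populations in Ctrl. That test therefore does not cover libraries like replicate 1 of the LD groups. Folds are back-transformed from the fitted log2 values. The comparisons were LD against Ctrl in each population, their difference, and the 2 populations against each other within Ctrl and within LD. Alternatives changed the pseudocount (0.5, 8), the minimum (none, 50), the scaling (TMM), the weights of samples, the block (replicate number, presumed animal), the groups in the fit (only those compared) or the test on recovered reads (the quasi-likelihood F test of edgeR 4.0.16, the Wald test of DESeq2 1.42.0), or left out each library in turn.

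The members, the other lists and the tests were chosen with earlier results of these data known. Library values are given for set representatives of each role and for the 3 largest and 3 smallest changes, and other lists name up to 3 genes with the smallest adjusted p. Other called genes of the lists, and genes named because they lost or gained a call, were chosen after their values were seen. Gene positions and exon lengths are from GENCODE M21 (GRCm38), and promoters from RefSeq (GRCm38.p6). Tables and figures were made with pandas 2.3.3, numpy 2.4.6 and matplotlib 3.10.9 under Python 3.11.15.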

Additional observations from a re-analysis of the deposited data

Results flagged for a closer look

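Prc1 and Kif23 were flagged for the fitted difference between their changes after lymphodepletion in the 2 populations. For Prc1 the LD change in M-MDSC minus that in PMN-MDSC was 2.60 (limma adjusted p = 0.0487). For Kif23 it was 1.19 (limma adjusted p = 0.0564), which did not pass, but each M-MDSC LD library was above all M-MDSC Ctrl libraries and each PMN-MDSC LD library below all PMN-MDSC Ctrl libraries. Kif23 passed for this difference by edgeR and by DESeq2, and Prc1 by DESeq2 but not by edgeR. Prc1 lost its call with a pseudocount of 0.5, without a minimum level and without most single libraries. The members' median difference was 1.87, above that of Kif23. The 1 call by limma is 2.04% of the members, near the 1.18% of all genes called in that direction.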

How the results depend on the processing

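Percentages in brackets are the share of all genes called in either direction in the same fit. For LD against Ctrl in M-MDSC (26 members called), the count was 15 without a minimum level (1.22%), 41 with sample weights (8.78%) and 40 by DESeq2 (6.5%). It was 5 to 36 with 1 library left out. The fitted change of each member tested was above 0 under each alternative run. Of 588 gene values with 1 library left out, 99 lost and 22 gained a call. In PMN-MDSC (0 called) the count was 1 with only the 2 groups compared (Kif23, 12.4%) and 0 to 1 with 1 library left out. It was 2 without LD replicate 1 of both populations (22.1%), an alternative chosen after seeing the data, as was scaling by total reads. For the difference of the changes (1 called) it was 0 with a pseudocount of 0.5 (2.15%) and without a minimum (0.622%). It was 2 with a pseudocount of 8 (2.68%) and with total reads (2.8%), 12 with sample weights (4.71%) and 4 by DESeq2 (6.22%). It was 27 without both LD replicates 1 (6.95%) and 0 to 31 with 1 library left out. Between the populations in Ctrl (34 called) it was 14 with total reads (77.9%) and 19 to 37 with 1 library left out. In LD (5 called) it was 8 with sample weights (73.2%), 24 with total reads (79.7%), 21 without both LD replicates 1 (73.2%) and 4 to 30 with 1 library left out. With total reads Mad2l1, Smc2 and Ncapd2 reversed in Ctrl to 0.08, 0.31 and 0.15. The cause was not tested, except that total reads rescale all genes of 1 population against the other. Where 1 library left a group with 2, the spread was still pooled over all groups.

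The replicate numbers are shared between groups, but same-numbered M-MDSC and PMN-MDSC libraries deviated together only in part (r over genes of -0.037, 0.054 and 0.135 in Ctrl, and 0.208, 0.125 and 0.068 in LD), so they were not treated as pairs. Each M-MDSC LD library correlated best with the PMN-MDSC LD library of its own number, which was not so for all Ctrl libraries. With a replicate block, 31 members were called for LD against Ctrl in M-MDSC, 0 in PMN-MDSC, 4 for the difference of the changes, 37 for the populations in Ctrl and 8 in LD. With a block for the presumed animal, the last 3 counts were 28, 42 and 19. Of all genes, the replicate block called 3.35%, 14.9%, 1.92%, 75.2% and 74.4% in that order, and the animal block 4.82%, 76.2% and 75.7%.

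With 3 libraries per group and 1 LD library per population at several times the level of the others, the SE of most members in LD is large. A missed threshold does not show that a gene did not change.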
